A study of Drosophila melanogaster with 6 samples.

Results

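The 10 genes described here encode the tumour necrosis factor (TNF) and Jun N-terminal kinase (JNK) signalling chain of the fly and a set of its wound-response targets: egr, wgn, hep, bsk, kay, Jra, puc, Mmp1, Ets21C and Gadd45. They were taken by symbol from the 14026 genes of the deposited table, and all 10 were found there once, with reads in every comparison. The RNA came from midguts of adult Drosophila melanogaster of the wild-type strain Oregon-R, in 3 groups of 2 libraries each. Flies of Mock day0 were 4 to 5 days old and were given sucrose, and flies of Pe day0 were of the same age and were given Pe, which the labels leave unexplained. The group Pe day3 came from flies of 7 to 8 days given Pe. No sucrose group of that age is among the samples, so treatment, day and age cannot be told apart between Pe day3 and Mock day0. The labels do not say whether libraries of a group came from separate dissections, and all p-values measure only the spread between libraries, which may be technical.

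The table gives no value per library. What it holds are each gene's mean over the 6 libraries and the authors' own log2 fold changes, standard errors (SE) and adjusted p-values for both Pe groups against Mock day0. Its header does not name the groups; the first comparison was read as Pe day0 and the second as Pe day3 from the order in the table's title, and all directions rest on that reading. Group means were recovered from those columns as normalized counts (reads scaled by the size factor of their library), with a 95% interval from the spread that yields the deposited SE. Estimated depth was 17600000 to 20100000 reads per library. A call means an adjusted p under 0.05 over all tested genes. In bulk tissue fewer cells of a type and less RNA per cell cannot be told apart.

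As background, Eiger, the product of egr, is the fly TNF; it binds the receptors Wengen (wgn) and Grindelwald (grnd). Adaptors and upstream kinases pass the signal to Hemipterous (hep), the JNK kinase, which phosphorylates Basket (bsk), the JNK itself. Basket phosphorylates the AP-1 transcription factor, made of Kayak (kay, the fly Fos) and Jra (the fly Jun). Among its targets are puc, whose product dephosphorylates Basket and closes a feedback loop, and Mmp1, a protease of the extracellular matrix. The chain is known for wound closure, cell death and, in the gut, for the stress response of enterocytes and the division of stem cells. Its activation is by phosphorylation, which RNA levels do not measure.

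Across the chain, transcripts of the target end rose at Pe day0, those of the kinases hep and bsk showed no called change, and those of the ligand gene egr and the receptor gene wgn fell on the deposited scale. Of the 10 genes 6 rose at Pe day0 against Mock day0, namely kay, Jra, puc, Mmp1, Ets21C and Gadd45. The genes egr and wgn fell, which makes 2. Over all 10393 tested genes 23.0% were called higher and 23.6% lower. The share of risers among the 10 genes was above that background and the share that fell was close to it. The 10 genes were chosen with earlier results of these data known, so the comparison of shares is a description. The median log2 fold change of the 10 genes was 1.21, against 0.03 over all tested genes. At Pe day3, 5 of the 10 were still above Mock day0 and 0 below, against 8.75% and 8.92% of 8316 tested genes. The medians were then 0.39 for the 10 genes and 0.01 for all tested genes. Between Pe day0 and Pe day3, tested as a difference in its own right, 6 genes fell and 2 rose, where 25.3% of tested genes fell and 27.4% rose. All comparisons share libraries, so they are not independent of each other.

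**Figure D1:**
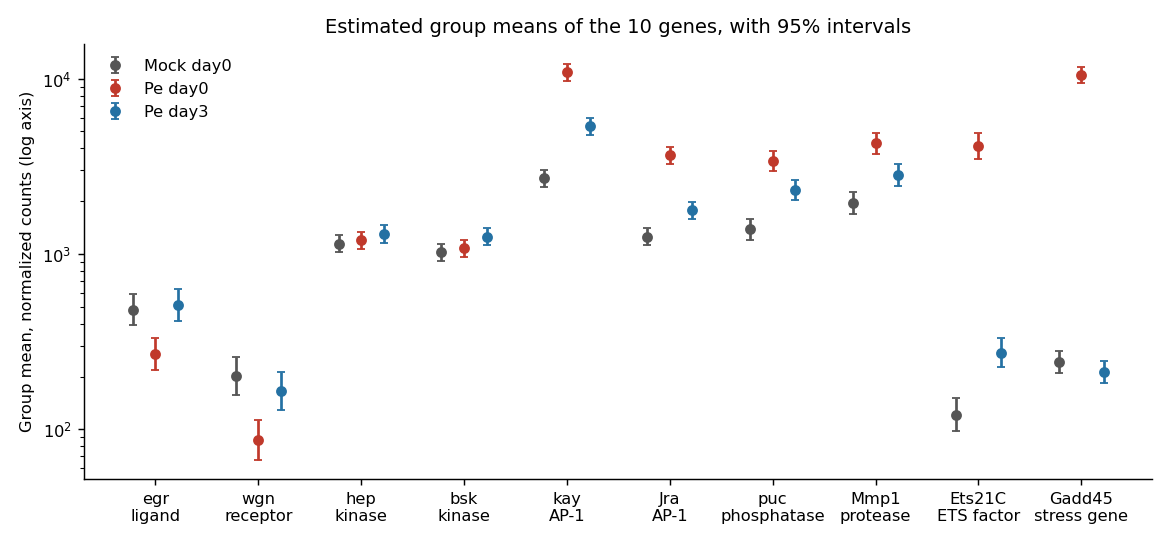
Estimated group means of the 10 genes in normalized counts on a log axis, for Mock day0, Pe day0 and Pe day3; points are means of 2 libraries as recovered from the deposited table and bars are 95% intervals. The Pe day0 means of Gadd45 (10486) and Ets21C (4138) stand far above both other groups, those of egr (269) and wgn (86.9) below them, and hep and bsk stay between 1022 and 1296 throughout.

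At the head of the chain, the ligand gene egr and the receptor gene wgn fell on the deposited scale. The mean of egr was 481 normalized counts in Mock day0 (95% interval 391 to 591), 269 at Pe day0 (219 to 331) and 512 at Pe day3 (417 to 629). The Pe day0 interval lies below both others, which overlap. The fall at Pe day0 was -0.84 on the log2 scale (SE 0.22, adjusted p = 0.000358) in the authors' deposited table, and from Pe day0 to Pe day3 egr rose by 0.93 (SE 0.21, adjusted p = 5.79e-05, Wald test). Its level at Pe day3 was not separable from Mock day0 (0.09, 95% interval -0.33 to 0.51, adjusted p = 0.866, authors' deposited table).

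The receptor gene wgn moved in the same way at a lower level. Its means were 202 normalized counts in Mock day0 (157 to 259), 86.9 at Pe day0 (67.1 to 112) and 166 at Pe day3 (128 to 213). In the authors' deposited table it fell 2.32-fold at Pe day0 (SE 0.26 on the log2 scale, adjusted p = 1.85e-05). It then rose by 0.93 (SE 0.27, adjusted p = 0.00140, Wald test), and at Pe day3 stood at -0.29 against Mock day0 (-0.80 to 0.23, adjusted p = 0.562, authors' deposited table). These were the 2 genes of the set with the widest estimated spread, a coefficient of variation of 14.0% for egr and 16.3% for wgn. The median over tested genes was 11.4%. Such values were solved from the deposited SE, and the spread between libraries was not seen directly. The second receptor gene, grnd, was near the limit of measurement, with 6.78 normalized counts in Mock day0 and 20.7 at Pe day0; its change did not pass (1.61, SE 0.75, adjusted p = 0.0677, authors' deposited table). On library totals grnd was called higher (2.27, adjusted p = 0.00500).

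The falls of egr and wgn depended on the scale. The total of normalized counts at Pe day0 was lower than in Mock day0 by 0.67 on the log2 scale, and setting the group totals equal moves each gene up by that amount. On library totals egr stood at -0.17 (adjusted p = 0.508) and wgn at -0.55 (adjusted p = 0.0596) at Pe day0, and neither was called. Their rises to Pe day3 also ended there, at 0.29 for each (adjusted p = 0.216 and 0.321). The scale does not touch a comparison between genes. Relative to bsk in the same libraries, egr was lower at Pe day0 than in Mock day0 by 0.91 on the log2 scale (difference -0.91, combined SE 0.24) and wgn by 1.29 (-1.29, combined SE 0.29).

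The kinase genes hep and bsk showed no called change on the deposited scale. The mean of hep was 1147 normalized counts in Mock day0 (1020 to 1289), 1197 at Pe day0 (1069 to 1340) and 1296 at Pe day3 (1155 to 1455). The mean of bsk was 1022 in Mock day0 (911 to 1145), 1076 at Pe day0 (965 to 1201) and 1252 at Pe day3 (1119 to 1400). All 3 intervals of each gene overlap. In the authors' deposited table hep was at 0.06 at Pe day0 (95% interval -0.17 to 0.30, adjusted p = 0.706) and bsk at 0.08 (-0.15 to 0.30, adjusted p = 0.628), so changes above about 0.30 in either gene lie outside the intervals on that scale. At Pe day3 hep was at 0.18 (SE 0.12, adjusted p = 0.386) and bsk at 0.29 (SE 0.12, adjusted p = 0.0669), again in the authors' deposited table. On library totals both genes were called higher at Pe day0 (hep 0.73, adjusted p = 4.97e-09; bsk 0.74, adjusted p = 8.82e-10) and bsk also at Pe day3 (0.32, adjusted p = 0.0379). That shift is shared by all genes: the median over all tested genes at Pe day0 was then 0.69. The pair moved alike on any scale, with a difference between hep and bsk of -0.01 (combined SE 0.17) at Pe day0.

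Both AP-1 genes rose. The mean of kay, the fly Fos gene, was 2701 normalized counts in Mock day0 (2410 to 3028), 10882 at Pe day0 (9741 to 12157) and 5347 at Pe day3 (4780 to 5981). The 3 intervals are separate, with Pe day3 between the other groups. In the authors' deposited table kay was 4.03-fold higher at Pe day0 (log2 2.01, SE 0.12, adjusted p = 2.86e-64) and 1.98-fold higher at Pe day3 (0.99, SE 0.12, adjusted p = 1.09e-14). From Pe day0 to Pe day3 it fell by 1.03 (SE 0.12, adjusted p = 1.39e-17, Wald test).

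Its partner Jra, the fly Jun gene, stood at 1256 normalized counts in Mock day0 (1121 to 1408), 3652 at Pe day0 (3280 to 4066) and 1771 at Pe day3 (1584 to 1980). Its order of groups was that of kay, again with separate intervals. The authors' deposited table had it 2.91-fold higher at Pe day0 (1.54, SE 0.12, adjusted p = 4.43e-39) and 1.41-fold higher at Pe day3 (0.50, SE 0.12, adjusted p = 0.000402). The fall between the days was 1.04 on the log2 scale (-1.04, SE 0.11, adjusted p = 7.68e-19, Wald test). Per kilobase of the longest annotated transcript, kay and Jra lay side by side in level at Pe day0 (2379 and 2333 normalized counts per kilobase) and at Pe day3 (1169 and 1131), where they differed by less than the spread. In Mock day0 Jra was above kay (803 against 591), a gap of 0.44 on the log2 scale (combined SE 0.12). Such comparisons of level between genes rest on that length. The gene kay has 5 annotated transcripts and Jra 3, and their use was not measured.

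The feedback gene puc and the protease gene Mmp1 also rose and were still above Mock day0 at Pe day3. Their estimated factors at Pe day0 were smaller than those of the AP-1 genes, but these differences were not tested. On the log2 scale the 95% intervals of puc (1.01 to 1.57) and Mmp1 (0.84 to 1.41) overlap that of Jra (1.31 to 1.77), and lie below that of kay (1.78 to 2.24). The means of puc were 1381 normalized counts in Mock day0 (1202 to 1587), 3383 at Pe day0 (2958 to 3869) and 2316 at Pe day3 (2021 to 2654). The means of Mmp1 were 1959 (1701 to 2256), 4271 (3721 to 4903) and 2817 (2450 to 3239) in the same order. In both genes the 3 intervals are separate. At Pe day0 the authors' deposited table had puc 2.45-fold (1.29, SE 0.14, adjusted p = 1.44e-18) and Mmp1 2.18-fold above Mock day0 (1.12, SE 0.15, adjusted p = 9.66e-14). At Pe day3 the authors' deposited table had puc 1.68-fold (0.75, SE 0.14, adjusted p = 6.09e-06) and Mmp1 1.44-fold above Mock day0 (0.52, SE 0.15, adjusted p = 0.00366). Between the days puc fell by 0.55 (SE 0.14, adjusted p = 0.000338) and Mmp1 by 0.60 (SE 0.14, adjusted p = 0.000114) in the Wald test of the difference. Per kilobase the levels of puc and Mmp1 did not differ beyond their spread in any group.

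Ets21C, which encodes an ETS-family transcription factor that acts with AP-1 in stressed fly tissue, and Gadd45, whose mammalian relatives are induced by stress and DNA damage, rose most. Ets21C was the lowest of the 10 genes per kilobase in Mock day0 and had 121 normalized counts there (97.2 to 151), 4138 at Pe day0 (3484 to 4915) and 274 at Pe day3 (226 to 332). Gadd45 had 241 in Mock day0 (210 to 278), 10486 at Pe day0 (9481 to 11598) and 212 at Pe day3 (184 to 245). The 3 intervals of Ets21C are separate, while those of Gadd45 in Mock day0 and at Pe day3 overlap. In the authors' deposited table the rise at Pe day0 was 34.2-fold for Ets21C (5.09, SE 0.21, adjusted p = 2.16e-133) and 43.4-fold for Gadd45 (5.44, SE 0.13, adjusted p listed as 0). Per kilobase Gadd45 moved from the eighth place in Mock day0 to the first at Pe day0, at 7014 normalized counts per kilobase. By size of increase, Gadd45 ranked 89 and Ets21C 123 among the 10393 tested genes at Pe day0, in the authors' deposited table.

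Both genes then dropped, but not to the same point. Between the days Gadd45 fell by 5.63 on the log2 scale (SE 0.13) and Ets21C by 3.92 (SE 0.19), each called, with adjusted p = 1.03e-91 for Ets21C and a value that is stored as 0 for Gadd45. At Pe day3 Gadd45 stood at -0.19 against Mock day0 (95% interval -0.48 to 0.10, adjusted p = 0.477) in the authors' deposited table. Ets21C remained 2.26-fold above Mock day0 there (1.18, SE 0.22, adjusted p = 1.94e-06) and ranked 145 among 8316 tested genes in the authors' deposited table. At Pe day0 the log2 changes of these genes differed by 0.35 (Ets21C below Gadd45, -0.35, combined SE 0.24), which is within the spread of the estimates. At Pe day3 they differed by 1.36 in the other direction (combined SE 0.26).

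**Figure D2:**
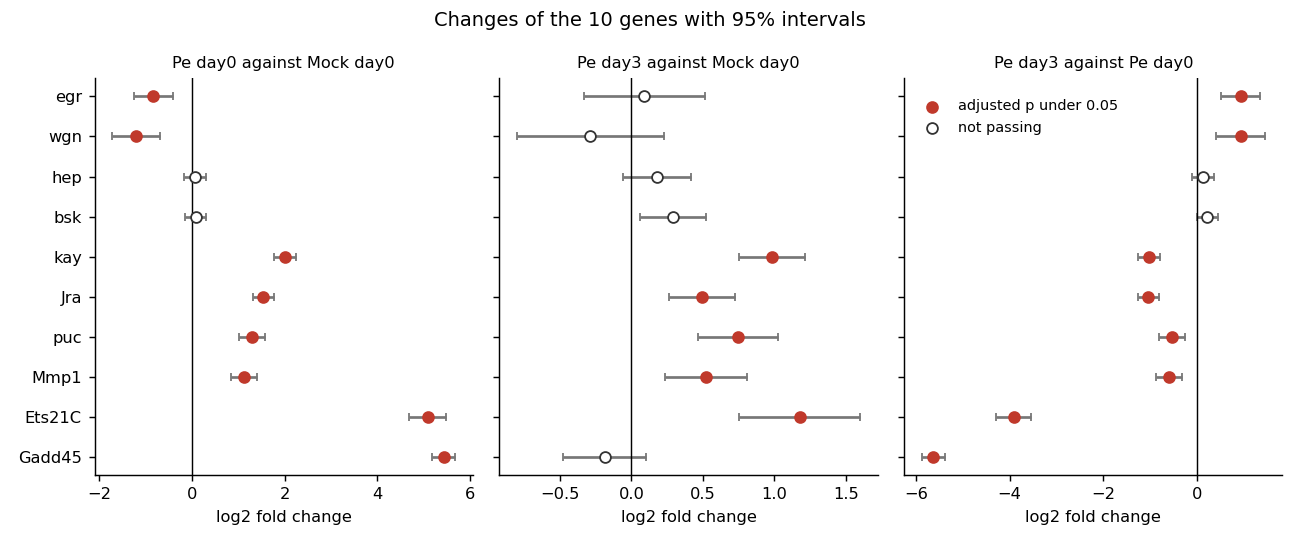
The log2 fold changes of the 10 genes in the 3 comparisons, with 95% intervals as bars; filled points pass an adjusted p of 0.05 and open points do not. The horizontal axes differ between panels. Gadd45 has the largest rise (5.44) and the largest fall (-5.63), while Ets21C, kay, puc, Mmp1 and Jra stay right of 0 at Pe day3.

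The share of the Pe day0 rise that was left at Pe day3 differed among the risers. In normalized counts it was 46.7% for puc, 37.1% for Mmp1, 32.3% for kay, 21.5% for Jra, 3.80% for Ets21C and -0.29% for Gadd45. In CPM, counts scaled to equal library totals, the order was the same and the shares were 24.6%, 19.0%, 18.9%, 12.1%, 2.45% and -0.15%, with Mmp1 and kay level. As a share of the log2 fold change, kay (49.0%) came before Mmp1 (46.6%), after puc (57.7%) and ahead of Jra (32.2%), Ets21C (23.1%) and Gadd45 (-3.44%). The pair with the largest rises, Ets21C and Gadd45, kept the smallest shares. These shares are descriptions with no test, since all rest on the same Mock day0 libraries. On the log2 scale, the rise of all 6 genes and the fall of all 6 between the days were called with the deposited scale, with library totals, with totals that leave out the 20 most abundant genes, with either filter on low values and at an adjusted p of 0.01.

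**Figure D3:**
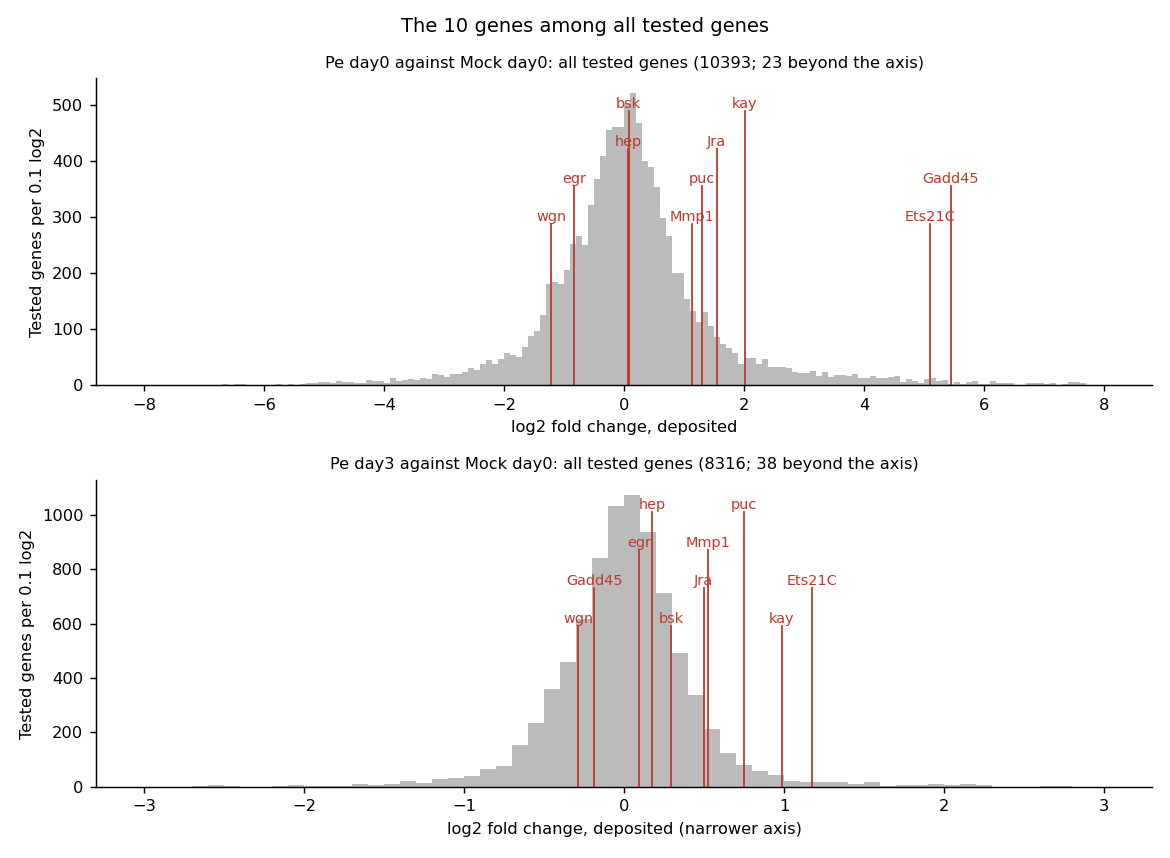
Positions of the 10 genes (red lines) in the distribution of deposited log2 fold changes over all tested genes (grey bars of width 0.1), at Pe day0 (above) and Pe day3 (below, on a narrower axis); line heights only separate the labels. Ets21C and Gadd45 lie in the far right tail at Pe day0, at the percentiles 98.8 and 99.1, and Gadd45 lies left of the middle at Pe day3, at 27.3.

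Calls for the other 4 genes differed between scales. On library totals 8 of the 10 genes were higher and 0 lower at Pe day0, where 53.4% of all tested genes were higher and 8.97% lower. At Pe day3 the counts were 6 higher and 0 lower, against 9.72% and 8.04% of tested genes. From Pe day0 to Pe day3, 8 were lower and 0 higher on library totals, against 63.1% and 9.36%, and hep and bsk then turned from small rises to falls (-0.52 and -0.42).

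**Figure D4:**
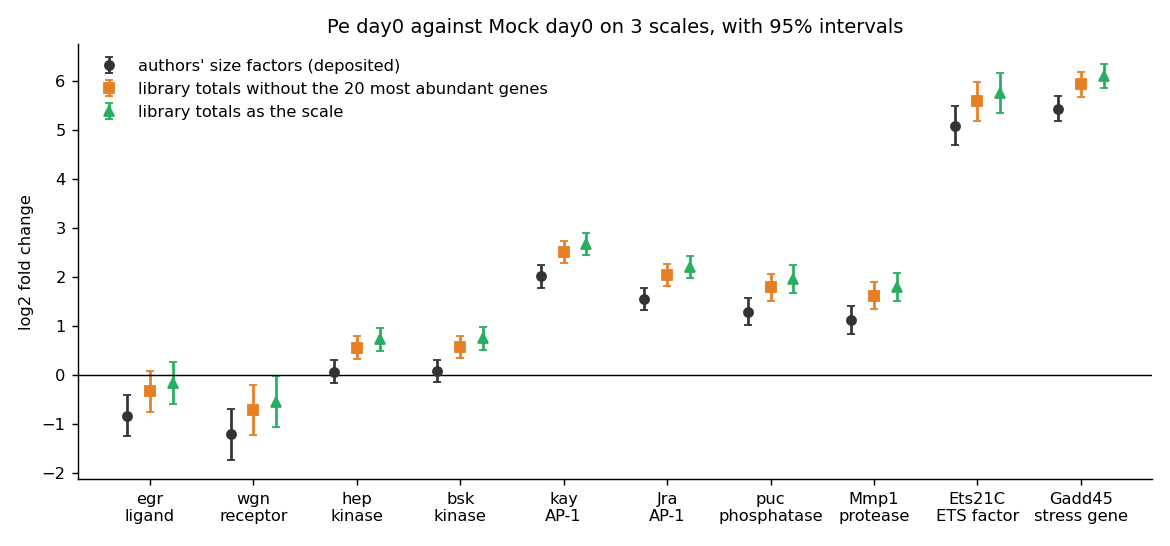
Log2 fold change of each gene at Pe day0 against Mock day0 on the authors' size factors (black circles), on library totals without the 20 most abundant genes (orange squares) and on full library totals (green triangles), with 95% intervals. The shift is equal for all genes, up to 0.67; hep and bsk leave 0, and the intervals of egr reach 0 on both alternatives.

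The other genes of the pathway were read from lists of 52 genes, of which 50 were tested at Pe day0. Of these 24 rose and 8 fell, at a median log2 fold change of 0.64; on library totals 37 were higher and 1 lower. At Pe day3, 11 of 41 tested genes were higher and 1 lower than Mock day0.

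Against the same shares of all tested genes (23.0% higher and 23.6% lower at Pe day0, 53.4% and 8.97% on library totals, 8.75% and 8.92% at Pe day3), the lists are read as descriptions. In the list of TNF receptor and adaptor genes 3 of 6 rose at Pe day0 and 0 fell (6 and 0 on library totals). These were msn, a kinase gene acting upstream of JNK (0.96, SE 0.11), Traf6, an adaptor gene (0.57, SE 0.18), and Tab2, which encodes a partner of the kinase Tak1 (0.44, SE 0.11), in the authors' deposited table. Tak1 itself (-0.20, SE 0.14) and the adaptor gene Traf4 (0.10, SE 0.29) did not pass there. At Pe day3 the authors' deposited table called msn alone of 5 tested (0.64, SE 0.11). Among 9 genes for MAP kinases upstream of and beside JNK, 4 rose and 3 fell at Pe day0, a split that became 6 and 0 on library totals. The stress kinase gene p38c rose 6.12-fold (2.61, SE 0.17) and stayed 1.63-fold higher at Pe day3 in the authors' deposited table, while its relative p38b fell at Pe day0 (-0.53, SE 0.11; 0.14 on library totals). The upstream kinase genes Mekk1 (2.33-fold), Mkk4 (1.78-fold) and wnd (1.68-fold) also rose at Pe day0 in the authors' deposited table. With p38c they complete the count of 4, and all were called higher on library totals. Like p38b, the upstream kinase genes slpr (-0.44, SE 0.14) and Ask1 (-0.49, SE 0.12) fell at Pe day0 in the authors' deposited table. Both complete the count of 3, and on library totals slpr and Ask1 were at 0.23 and 0.18, not called.

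Genes for stress transcription factors went both ways, with 2 of 8 higher and 2 lower at Pe day0 (6 and 1 on library totals). Xrp1, a bZIP factor gene of the DNA damage and cell competition responses, rose (1.25, SE 0.13), and maf-S, whose product pairs with the oxidative stress factor Cnc, fell (-1.50, SE 0.11) in the authors' deposited table. At Pe day3 none of the 8 was higher, with Atf3 at 0.51 (SE 0.21, adjusted p = 0.0726), and maf-S was still lower (-0.32, SE 0.11) in the authors' deposited table, a call that ended on library totals (-0.29, adjusted p = 0.0536).

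Of 12 wound and matrix genes 5 rose and 3 fell at Pe day0 (7 and 0 on library totals). Pvf1, a ligand gene of the receptor tyrosine kinase Pvr, rose 4.92-fold (2.30, SE 0.15) in the authors' deposited table. Timp, which encodes the tissue inhibitor of matrix metalloproteinases, fell as Mmp1 rose (-0.88, SE 0.21; -0.22 and not called on library totals) in the authors' deposited table. The other metalloproteinase gene, Mmp2, named here after its value was seen, rose 8.01-fold (SE 0.27 on the log2 scale) and was at 0.24 (SE 0.29, adjusted p = 0.678) by Pe day3 in the authors' deposited table, so of both protease genes only Mmp1 was called at that time; a difference between them at Pe day3 was not tested. NijA, a membrane protein gene of wounded tissue, was the 1 gene of 8 called at Pe day3 (1.00, SE 0.33) in the authors' deposited table.

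Among 7 tested genes for secreted factors, oxidases and death inducers 4 rose and 0 fell at Pe day0 (5 and 0 on library totals), with the smallest p for the cytokine gene upd3, from 17.1 to 2951 normalized counts. Its relative upd2, named after its values were seen, went from 7.87 to 1758 normalized counts. The estimated log2 rise of upd2 (7.80, SE 0.46) was larger than that of upd3 (7.43, SE 0.31) in the authors' deposited table. A difference between them was not tested, and both had few reads in Mock day0. At Pe day3 2 of 4 tested were higher, upd3 at 1.58 (SE 0.35) and upd2 at 1.77 (SE 0.51), in the authors' deposited table. Cytoskeleton and adhesion genes tied to JNK in epithelial closure rose in 6 of 8 cases at Pe day0 (7 on library totals) and were higher in 5 of 7 at Pe day3, with the smallest p both times for the integrin gene mys (1.19, SE 0.11, then 0.58, SE 0.11) in the authors' deposited table. The lower members with the smallest p that did not pass in these lists were Duox, an oxidase gene, at -3.23 (SE 1.58) and Rac1, a small GTPase gene, at -0.21 (SE 0.12) at Pe day0 in the authors' deposited table. At Pe day3 they were vkg, a collagen IV gene of the wound list, at -0.64 (SE 0.35), the p38 kinase kinase gene lic at -0.01 (SE 0.14) and the death inducer gene hid at -0.02 (SE 0.35), in the authors' deposited table.

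**Figure D5:**
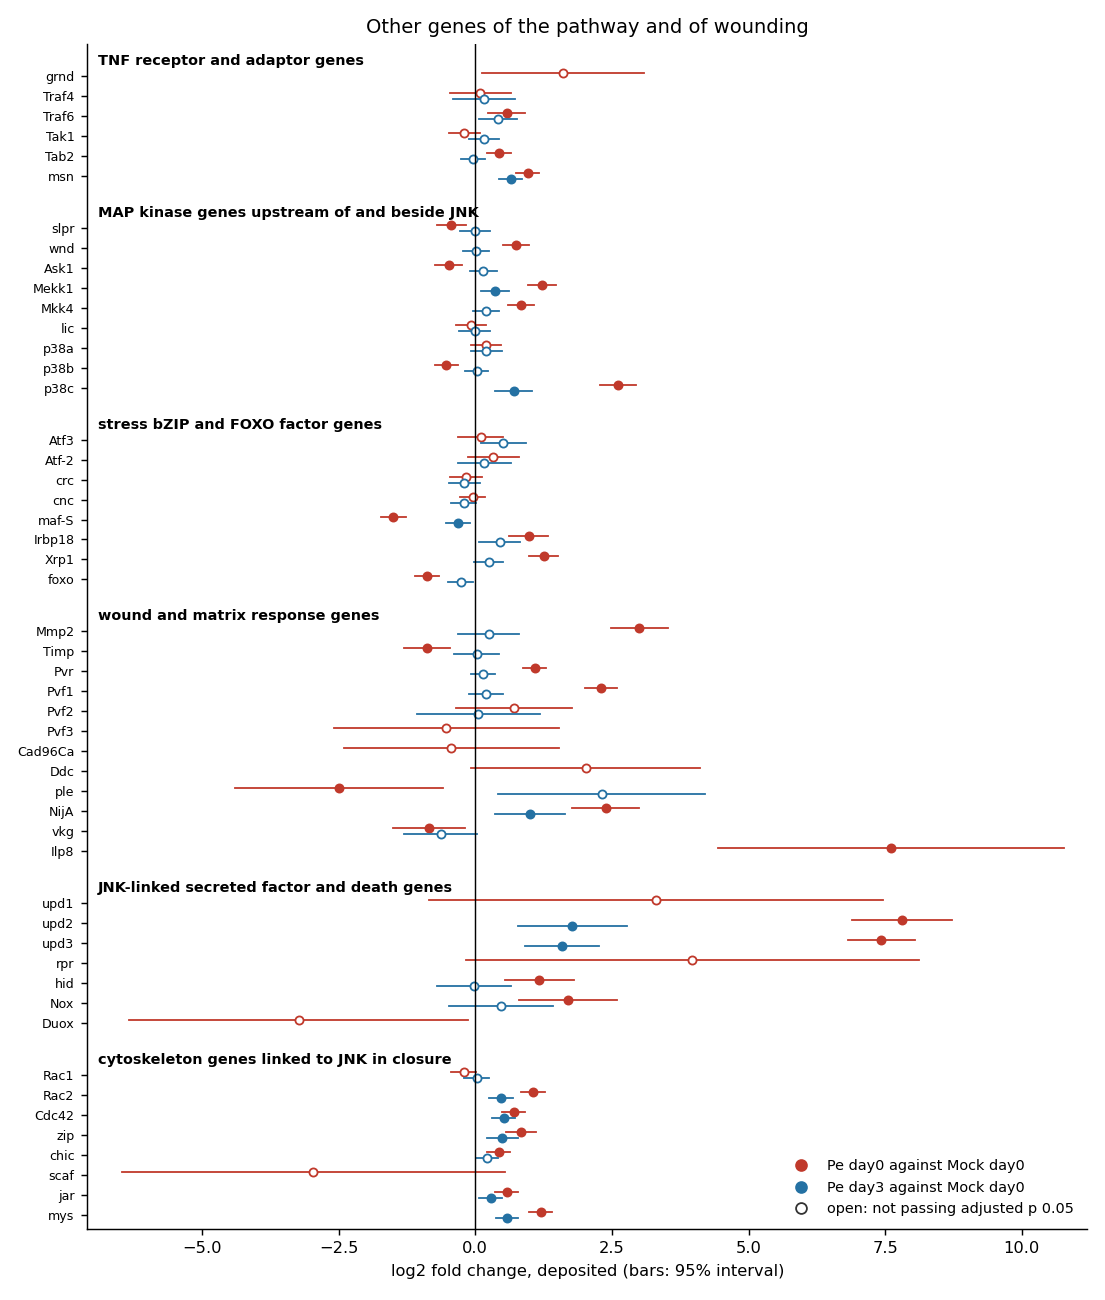
Deposited log2 fold changes of the pathway and wound genes that were tested, by list, at Pe day0 (red) and Pe day3 (blue) against Mock day0; bars are 95% intervals, filled points pass an adjusted p of 0.05, and a missing blue point was not tested. Most Pe day3 points lie nearer 0 than the Pe day0 point of the same gene, and wide bars mark genes with few reads such as Ilp8 and upd1.

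Markers of the gut's cell types moved as well, and their part in the changes of the 10 genes was not tested. The shares over all tested genes at Pe day0 were 23% higher and 23.6% lower, and 53.4% and 8.97% on library totals. Visceral muscle markers fell in 6 of 6 cases at Pe day0 on either scale, with summed levels of 498, 325 and 521 CPM in Mock day0, Pe day0 and Pe day3. Enteroendocrine markers fell in 5 of 6 (2 lower and 1 higher on library totals), from 415 to 233 and then 434. Most of that drop at Pe day0 lay in AstC (216 to 52.6 CPM), and AstA went from 42.4 to 28.0. Tk (91.7 to 85.1) and NPF (47.6 to 44.3) moved less, while pros (7.21 to 7.69) and Dh31 (10.2 to 15.4) did not fall in CPM. Enterocyte markers rose in 5 of 6 cases and fell in 1 (5 and 0 on library totals), with sums of 2114, 5953 and 2708. The largest part of that sum's rise lay in mesh (885 to 3368 CPM at Pe day0). Intestinal progenitor markers split into 2 higher and 2 lower of 6 (3 and 1 on library totals; sums 54.6, 79.2 and 67.2 CPM). Their summed normalized counts went the other way at Pe day0, from 1220 to 1114. Of 5 tested haemocyte markers 1 fell, on either scale (sums 38.3, 27.2 and 28.3), and He had a mean of 0.302 normalized counts. Tracheal markers fell in 3 of 5 cases (1 on library totals; sums 21.0, 15.8 and 15.8), fat body and reproductive tract markers in 3 of 4 (2 on library totals; 273, 124 and 278), and markers of Malpighian tubule and hindgut rose in 1 and fell in 2 of 4 (1 and 0 on library totals; 154, 230 and 171), with byn at 0. The 1 riser of the last list was cad (0.60, SE 0.15), and Irk1 (-0.85, SE 0.20) and Cubn (-0.56, SE 0.14) fell, in the authors' deposited table. The gene cad also had the largest mean of that list, 1318 normalized counts over the 6 libraries. The summed CPM therefore does not describe the list as a whole. The summed normalized counts of that list were 3449 in Mock day0 and 3232 at Pe day0, again opposite in direction to the CPM.

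The genes lie on X, 2L, 2R and 3R in BDGP6.54. On 2L are bsk (10247502 to 10250501, minus strand) and Ets21C (544925 to 552923, minus strand). On X are wgn (18624042 to 18634908, minus strand) and hep (13079205 to 13090434, minus strand), and on 3R are kay (29765995 to 29794113, plus strand) and puc (8105332 to 8122294, plus strand). The arm 2R holds egr (10078366 to 10084210, plus strand), Jra (10096480 to 10098556, plus strand), Mmp1 (24671294 to 24688184, minus strand) and Gadd45 (7249161 to 7250655, plus strand). Only 12269 bases separate the end of egr from the start of Jra, although the former fell and the latter rose at Pe day0 on the deposited scale. Gadd45 has a single exon and 1 transcript, and Mmp1 has the most transcripts, 10.

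Some of the 10 genes overlap others, and the library kit does not mark the strand. Ets21C shares 1532 exonic bases with nAChRbeta3, a receptor subunit gene on the other strand with 53.2 normalized counts in Mock day0 and 7.39 at Pe day0, which fell while Ets21C rose (-2.85, SE 0.63, adjusted p = 2.53e-05, authors' deposited table). Reads from the shared stretch cannot be told apart by strand, and their part in the Mock day0 level of Ets21C (121 normalized counts) was not tested. Jra shares 39 exonic bases with RpLP0-like (-0.45, SE 0.15, at Pe day0) and Mmp1 shares 284 with Pof (0.14, SE 0.21, adjusted p = 0.610), both on the other strand and both going by the authors' deposited table. The gene fig lies inside kay on the other strand with 0 shared exonic bases, and it rose as well, from 23.7 to 282 normalized counts (3.58, SE 0.35, adjusted p = 9.14e-23, authors' deposited table).

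The genes nearest to 3 of the 10 in their changes against Mock day0 were sought among 4178 others with a mean of at least 100 normalized counts, by Euclidean distance over the log2 fold changes at Pe day0 and Pe day3, which come from 3 groups. Nearest to Ets21C were Ote (distance 0.30), cv-2 (0.39), which encodes a BMP-binding protein, and rev7 (0.45). Nearest to puc were Alh (0.04), the integrin gene scb (0.05) and Gli (0.06), a septate junction gene. Nearest to egr were Ent1 (0.01), RNASEK (0.02) and AdipoR (0.02), whose product is a receptor related to those for adiponectin. With 3 groups such likeness is a description and says nothing of shared control.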

How the data were processed

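Total RNA of the adult midgut was extracted with TRIzol and prepared with the TruSeq RNA kit, per the labels' protocols. DESeq2 1.22.0, Salmon 0.11.3, fastp 0.19.5 and CASAVA 1.8 are listed with build BDGP6, per the submitters' processing notes. Options and strand handling were not stated. Per the file headers, the deposited table holds a mean signal (reads over size factors), log2 fold changes with standard errors, the Wald score and p-values, raw and adjusted. The deposited adjusted p-values equal Benjamini-Hochberg over genes with a mean of at least 1.24 (Pe day0, 10393 genes) or 20.8 (Pe day3, 8316); others were left blank.

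From these, size factors were read from genes with a single read, group means from both fold changes with the overall mean, and the dispersion from the standard errors. Both comparisons gave nearly equal dispersions (1st to 99th percentile of the ratio, 0.988 to 1.02). Pe day3 against Pe day0 used a 2-sided Wald test with the variance shared through Mock day0 removed, adjusted over 8316 genes. A plan for counts per library could not be used. Annotation came from Ensembl release 115 (BDGP6.54), with SciPy 1.17.1 and pandas 2.3.3. The genes and lists were chosen with earlier results of these data known. Named were the 10 genes, the receptor and adaptor list, and the smallest p per direction and comparison with Mock day0 among genes with an adjusted p in each other list. Mmp2, upd2, slpr, Ask1, Mekk1, Mkk4 and wnd were chosen after their values were seen. The enteroendocrine markers, mesh, cad, Irk1, Cubn, Sox21a, Dl, N and esg were likewise named after their values were seen. No sequences are shown.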

Additional observations from a re-analysis of the deposited data

Results flagged for a closer look

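The change against Mock day0 differed between Pe day0 and Pe day3 in 8 of the 10 genes. This was by the Wald test of the difference, with Benjamini-Hochberg adjustment over 8316 genes. Over all tested genes 27.4% were called higher and 25.3% lower in this test, which is the comparison of Pe day3 with Pe day0 given above. The change at Pe day3 minus that at Pe day0, on the log2 scale, was 0.93 for egr, 0.93 for wgn, -1.03 for kay and -1.04 for Jra. It was -0.55 for puc, -0.60 for Mmp1, -3.92 for Ets21C and -5.63 for Gadd45. Age and day differ together between these groups. On library totals the values of egr and wgn were no longer called.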

How the results depend on the processing

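Of 160 values recomputed for single genes under other settings, 144 kept their direction and call, 6 lost the call, 6 gained one without a change of sign and 4 changed sign, of which all but that of bsk without the 20 most abundant genes were then called. All changes of call or sign arose when the scale was changed to library totals, full or without the 20 most abundant genes. On full totals 0 genes were lower at Pe day0 (2 as deposited) and 0 were higher from Pe day0 to Pe day3 (2 as deposited). Without the 20 most abundant genes, 1 gene was lower at Pe day0 (wgn) and 1 higher from Pe day0 to Pe day3 (egr). From Pe day0 to Pe day3, hep turned to -0.52 and bsk to -0.42 on full totals, and to -0.31 and -0.21 without the 20 most abundant genes. By construction such a scale adds 1 constant to every gene, so it moves all genes alike and keeps their order. Calls or signs changed only for egr, wgn, hep and bsk. Over all genes, 5545 were higher and 932 lower at Pe day0 on full totals (2391 and 2455 as deposited), and 4721 and 1241 without the 20 most abundant genes. From Pe day0 to Pe day3 these counts were 778 and 5248, and 1169 and 4253 (2279 and 2100 as deposited). Without removing the shared variance 1346 genes were lower from Pe day0 to Pe day3. At an adjusted p under 0.01, 440 genes were higher at Pe day3 (728 at 0.05). No paired analysis was possible because the table holds no values per library, and leaving out each library was not run for the same reason. With 2 libraries a group, a single aberrant library could not be seen.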
